A study of Mus musculus with 22 samples.

Results

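The genes of oxidative phosphorylation encoded in the mitochondrial and in the nuclear genome were followed in 2 lung myeloid populations after induction of a mutant surfactant protein. Members were chosen by gene symbol: protein-coding genes whose symbols start with mt-Nd, mt-Co, mt-Cy or mt-Atp for the mitochondrial genome, and with Nduf, Sdha to Sdhd, Uqcr, Cox followed by a digit from 4 to 8, or Atp5 for the nuclear genome. This gave 107 of the 55421 genes in the monocyte table, 13 mitochondrial and 94 nuclear. The macrophage table of 31134 genes held 103 of them and lacked Cox8b, Cox8c, Ndufa4l2 and a read-through copy of Atp5o. A further 13 matching symbols were set aside because they are not annotated as protein-coding. The symbols alone decided membership and no measured value entered the rule, but the set was proposed with earlier results of these counts in view.

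Oxidative phosphorylation passes electrons from NADH and succinate along complexes I to IV of the inner mitochondrial membrane and uses the resulting proton gradient at complex V to make ATP. Complexes I, III, IV and V mix a few subunits encoded by the mitochondrial DNA with many encoded in the nucleus and imported, whereas complex II is wholly nuclear. The mitochondrial genes are transcribed together as long precursors that are then processed into single transcripts, so the RNA of each genome is made and degraded by separate machinery. Alveolar macrophages are long-lived lung cells known for a high mitochondrial and lipid metabolism, while Ly6Chi monocytes are short-lived cells recruited from blood.

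All mice were C57BL/6 and carried the SP-CI73T mutant allele of surfactant protein C, which is made by alveolar epithelial cells and not by the cells sorted here. In the injury groups a single oral gavage of tamoxifen let the Flp-O recombinase, knocked into the Rosa26 locus, remove a neomycin cassette and raise the mutant protein, and cells were sorted 3 d or 14 d later. The controls carried the same allele and are labelled as untreated. The study's methods describe its controls as tamoxifen-treated mice without Flp-O pooled with oil-treated Flp-O mice, and its results as oil-treated mice, so no group here lacked the mutant allele and the labels do not say which control is which. Ly6Chi monocytes were sequenced in 4 samples each of control, 3 d and 14 d, and SigF+CD11b- alveolar macrophages in 4 control, 3 samples at 3 d and 3 at 14 d, 22 libraries in all. The labels number the samples but do not name animals, so the p-values below measure the spread between these samples.

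Several facts of the libraries bear on every value below. Totals ran from 15451460 to 28789639 counts in monocytes, from 10692871 to 17074863 in control and 3 d macrophages, and from 4610720 to 6838893 in 14 d macrophages. In both cell types all 14 d libraries had high Y-linked counts (91.4 to 141 CPM) and little Xist (at most 4.98 CPM), while all control and 3 d libraries had Xist from 32 to 285 CPM and Y-linked counts of at most 0.221 CPM. Sex and the 14 d time point therefore cannot be told apart. Monocyte markers were counted in every monocyte group (summed 7848 to 15800 CPM against 302 to 730 CPM in macrophages) and alveolar macrophage markers in every macrophage group (24700 to 49590 CPM), but the latter list also reached 5283 to 19050 CPM in monocyte libraries. The number of genes with a count rose from 24775 to 30865 in control monocytes to 40119 to 41134 at 3 d. In macrophages it was 27699 to 30627 at 14 d, and 21499 to 27616 in control and 3 d libraries. Protein-coding genes took 90.9% to 93.4% of counts in 3 d monocytes, 96.3% to 96.9% in controls and 94.7% to 96.7% at 14 d. In macrophages they took 92.4% to 94.0% at 14 d and 95.5% to 96.2% in control and 3 d libraries. The part of these features in the changes below was not tested. In both cell types 1 time point differed from its control in a large part of all genes, so a fold change depends on how libraries are scaled. For that reason each result is given first with edgeR's TMM scaling and then relative to what moved under other scalings.

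Parts of the mitochondrial genome are repeated in nuclear pseudogenes, and the following windows, from the 5' end of 3 genes on chrM and of their copies in the GRCm38 assembly, show how alike they are. Letters that differ within a pair are in capitals.
mt-Co2, chrM:7013-7132, plus strand: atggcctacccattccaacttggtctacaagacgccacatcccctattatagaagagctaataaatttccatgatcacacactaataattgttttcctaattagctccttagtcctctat
Gm28661, chr1:24615446-24615565, minus strand: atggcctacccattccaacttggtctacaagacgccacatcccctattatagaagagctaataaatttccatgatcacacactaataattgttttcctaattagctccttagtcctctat
mt-Nd3, chrM:9459-9578, plus strand: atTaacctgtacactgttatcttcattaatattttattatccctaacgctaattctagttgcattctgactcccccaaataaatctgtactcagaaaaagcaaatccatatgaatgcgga
Gm28438, chr1:24613000-24613119, minus strand: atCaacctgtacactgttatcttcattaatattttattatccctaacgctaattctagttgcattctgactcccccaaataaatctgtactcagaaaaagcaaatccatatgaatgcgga
mt-Co1, chrM:5328-5447, plus strand: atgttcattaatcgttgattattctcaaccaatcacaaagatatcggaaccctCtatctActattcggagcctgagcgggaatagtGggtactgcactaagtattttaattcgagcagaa
Gm13340, chr2:22589528-22589647, minus strand: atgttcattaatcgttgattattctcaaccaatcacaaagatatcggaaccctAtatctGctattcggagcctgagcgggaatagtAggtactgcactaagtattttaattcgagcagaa
The mt-Co2 window is the same as that of its copy, the mt-Nd3 pair has 1 difference and the mt-Co1 pair has 3. Over whole genes, mt-Co2, mt-Atp6, mt-Co3 and mt-Nd4l match annotated pseudogenes on chromosome 1 with 0 mismatches over 681, 678, 783 and 294 aligned bases, and mt-Nd3 has 1 mismatch over 345. mt-Nd4 also matches a pseudogene there, Gm28439, with 0 mismatches over 876 bases, and shares 59.2% of its 150-base windows with it. The copy of mt-Co1, Gm13340 on chromosome 2, has 37 mismatches over 1545 bases, and mt-Nd1 has no annotated copy.

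The mitochondrial members fell into a set with high and a set with low counts. mt-Co1, the catalytic subunit of complex IV, had 56946 to 95467 counts per monocyte library and 58563 to 194702 per macrophage library. mt-Co2, its partner subunit from the same precursor, had 111 to 254 and 95 to 217 counts, close to the 112 to 284 and 97 to 258 counts of its copy Gm28661. mt-Co3, mt-Atp6, mt-Atp8, mt-Nd3 and mt-Nd4l were also low, and these 6 genes together made up 0.139% to 0.618% of the mitochondrial member counts. For mt-Atp8 the best annotated match covers only the 43 bases it shares with mt-Atp6. However, mt-Atp8 lies between mt-Co2 and mt-Atp6, whose copies on chromosome 1 begin as far apart as the genes themselves. The stretch between those copies was not compared with mt-Atp8, since only annotated pseudogenes were searched. The other 7 genes, mt-Nd1, mt-Nd2, mt-Nd4, mt-Nd5, mt-Nd6, mt-Cytb and mt-Co1, carried the rest. Among them mt-Nd4, whose copy on chromosome 1 covers 876 of its 1378 bases, had 7061 to 34828 counts per library. All 13 genes are kept in the counts and medians below, where the values of the 7 genes alone are given beside them. How reads that match more than 1 place were counted is not given in the sources used here, and its part in these counts was not tested.

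**Figure D1:**
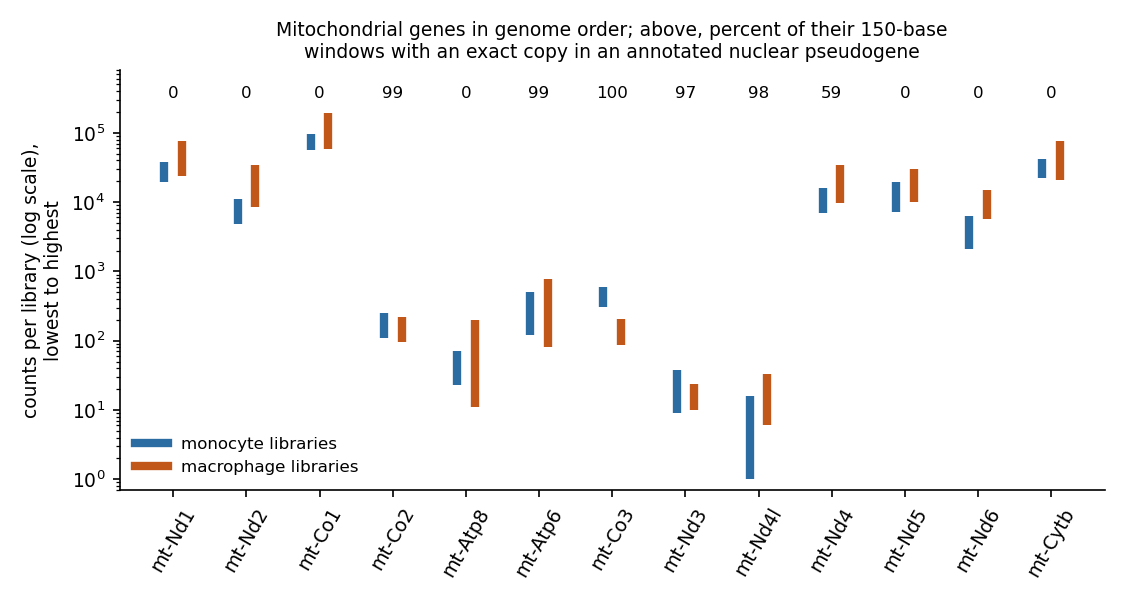
Counts per library (log scale; each bar spans the lowest to the highest library) of the 13 mitochondrial members in genome order, with blue for monocytes and orange for macrophages, and above each gene the percent of its 150-base windows that occur without a mismatch in an annotated nuclear pseudogene. mt-Co2, mt-Atp6, mt-Co3, mt-Nd3 and mt-Nd4l share 97.0% to 99.8% of their windows and lie far below mt-Co1, mt-Nd1 and mt-Cytb. mt-Atp8 is low with no shared window in the annotated pseudogenes, and sequence outside them was not searched.

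In the nuclear genome, 74 of the 94 nuclear members matched a promoter in RefSeq (GRCm38.p6, 250 bases before to 50 after the gene start). The core of the motif of NRF1, a regulator of respiratory genes, was searched as CGCATGCG, which reads the same on both strands, and found in 11 of the 74 (14.9%) against 559 of 27025 promoters (2.07%). On both strands the YY1 motif AAGATGGC was found in 10 members (13.5%, against 3.19% of all promoters) and the ETS motif ACTTCCGG in 5 (6.76%, against 4.31%). The 11 with the NRF1 core were Atp5g2, Atp5j, Atp5k, Atp5l, Cox6a1, Ndufa8, Ndufa11, Ndufaf4, Ndufaf5, Uqcr11 and Uqcrc1, and 3 of them, from complexes I, III and IV, are printed with the core in capitals to show where it lies.
Ndufa11, chr17:56717512-56717811, plus strand: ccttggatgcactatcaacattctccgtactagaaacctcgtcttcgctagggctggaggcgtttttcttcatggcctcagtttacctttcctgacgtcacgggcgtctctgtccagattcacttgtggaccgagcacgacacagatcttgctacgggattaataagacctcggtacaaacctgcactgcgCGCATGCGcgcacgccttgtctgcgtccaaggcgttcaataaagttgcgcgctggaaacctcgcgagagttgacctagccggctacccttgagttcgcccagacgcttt
Uqcrc1, chr9:108936398-108936697, plus strand: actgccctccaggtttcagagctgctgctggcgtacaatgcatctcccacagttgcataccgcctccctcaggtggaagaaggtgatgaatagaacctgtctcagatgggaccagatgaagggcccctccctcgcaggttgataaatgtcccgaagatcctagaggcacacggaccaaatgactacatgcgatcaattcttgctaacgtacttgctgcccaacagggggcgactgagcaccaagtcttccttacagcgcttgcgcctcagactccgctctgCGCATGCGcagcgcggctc
Cox6a1, chr5:115348909-115349208, minus strand: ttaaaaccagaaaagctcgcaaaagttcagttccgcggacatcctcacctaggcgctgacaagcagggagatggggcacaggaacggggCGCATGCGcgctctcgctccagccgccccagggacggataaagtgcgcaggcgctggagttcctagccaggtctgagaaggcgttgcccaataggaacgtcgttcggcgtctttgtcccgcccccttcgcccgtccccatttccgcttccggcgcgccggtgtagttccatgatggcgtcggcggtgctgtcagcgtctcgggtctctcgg
The motif is a match of letters and not a measured binding site.

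Per kilobase of annotated exon, a few mitochondrial genes had the highest levels of all members in control libraries. The length used was that of all annotated exons of a gene together (5628 bases for Ndufb2). Where it exceeds the transcript present, as it can in nuclear genes with several exons, the level per kilobase is too low. In control monocytes mt-Co1 stood at 1873 ± 233 CPM per kb (SD, n = 4), and the next mitochondrial genes, mt-Cytb (1023 ± 204) and mt-Nd1 (964 ± 153), overlapped within their spread. The nuclear genes with the highest control levels in monocytes were small complex IV subunits, Cox6a1 (539.7 ± 81.0), Cox6b1 (532.0 ± 84.3) and Cox8a (511.0 ± 68.8), which did not differ beyond their spread, and the median nuclear member was at 79.1 CPM per kb. mt-Nd4 (290.4), mt-Nd2 (267.4), mt-Nd5 (227.6) and mt-Nd6 (222.3) lay below these nuclear genes. In control macrophages mt-Co1 stood at 5335 ± 437 CPM per kb. Cox4i1, the regulatory subunit of complex IV, led the nuclear members there (440.0 ± 18.2), ahead of Cox6a1 (354.6 ± 22) and Cox6b1 (271.6 ± 13.2), with a nuclear median of 58.0. The cell types were deposited in separate tables, so their levels are set side by side and not tested.

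Mitochondrial members took a larger share of the library 3 d post injury in both cell types. In monocytes they made up 0.622% ± 0.093 of counts in controls, 1.12% ± 0.23 at 3 d and 0.668% ± 0.068 at 14 d (SD, n = 4 each), and all 3 d libraries lay above all others. In macrophages they made up 1.81% ± 0.13 in controls (n = 4), 2.86% ± 0.33 at 3 d and 2.71% ± 0.63 at 14 d (n = 3 each), with every injury library above every control. The nuclear members' share was 1.46% ± 0.12, 1.78% ± 0.18 and 1.87% ± 0.24 in monocytes and 1.04% ± 0.02, 1.14% ± 0.15 and 0.973% ± 0.112 in macrophages, and here injury and control libraries overlapped in each comparison.

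The ratio of the 2 genomes within a library needs no scaling between libraries. In monocytes the mitochondrial to nuclear ratio was 0.501, 0.408, 0.312 and 0.508 in controls, 0.653, 0.543, 0.752 and 0.569 at 3 d, and 0.338, 0.366, 0.321 and 0.420 at 14 d. All 4 libraries at 3 d were above all 8 others, and the 14 d libraries overlapped with the controls. In macrophages it was 1.83, 1.68, 1.55 and 1.87 in controls, 2.51, 2.57 and 2.46 at 3 d, and 2.81, 1.90 and 3.86 at 14 d. The 3 d libraries of macrophages were close together and above the controls, while the 14 d libraries were spread widely, with replicate 2 just above the highest control. The mean ratio within complexes I, III and IV followed the same order. For complex I the ratio was 0.484 ± 0.122, 0.783 ± 0.129 and 0.406 ± 0.0527 in monocytes and 2.7 ± 0.238, 4.02 ± 0.231 and 4.89 ± 1.75 in macrophages. For complex III, where mt-Cytb is the sole mitochondrial subunit, it was 0.716 ± 0.200, 1.04 ± 0.0856 and 0.530 ± 0.0987, and 2.80 ± 0.243, 4.28 ± 0.245 and 4.74 ± 1.81. For complex IV it was 0.973 ± 0.210, 1.23 ± 0.194 and 0.803 ± 0.116, and 3.41 ± 0.291, 4.82 ± 0.0953 and 5.65 ± 2.09. At 3 d the libraries lay above all controls in complexes I and III, and in complex IV the monocyte groups overlapped. Fewer cells of a type and less RNA per cell cannot be told apart in such bulk libraries.

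**Figure D2:**
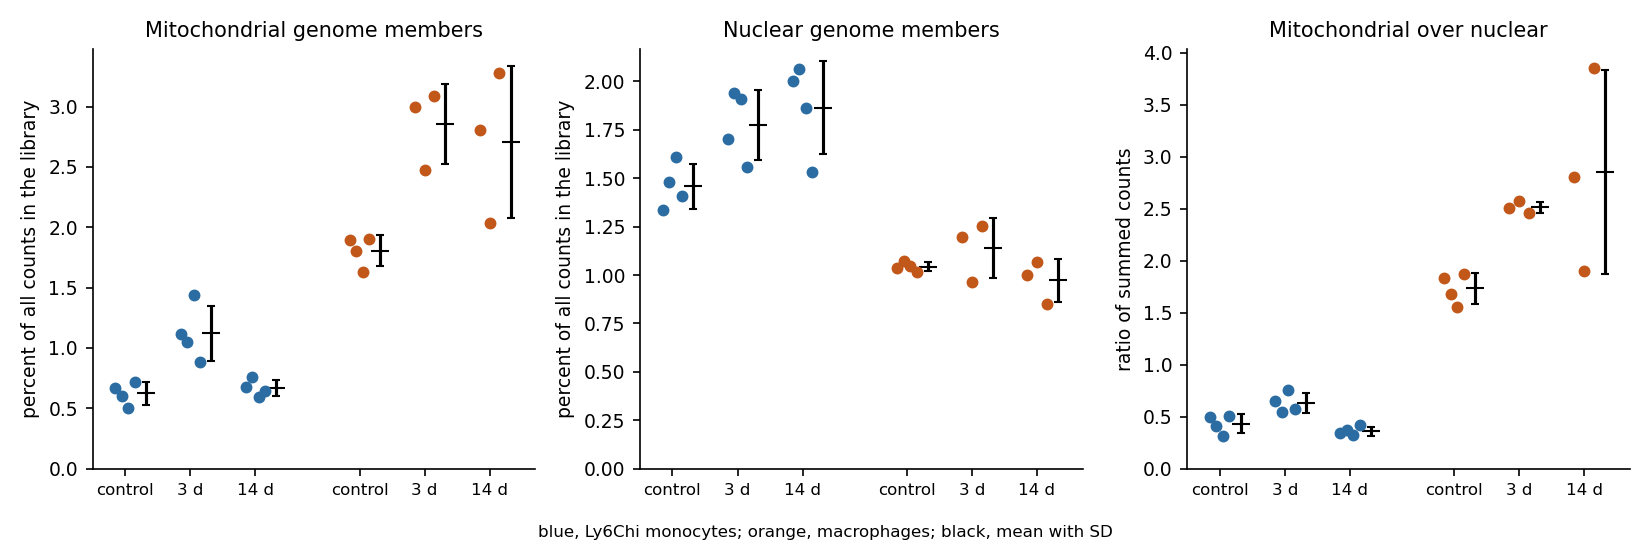
Percent of all counts in each library from the 13 mitochondrial members (left) and the nuclear members (middle), and the ratio of the 2 (right), with a point per library, blue for monocytes and orange for macrophages, and black marks for the mean with SD. The monocyte ratio is above 0.54 in all 4 libraries at 3 d and at most 0.508 elsewhere, and the 3 macrophage libraries at 14 d spread from 1.90 to 3.86.

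Against control, mitochondrial members had positive and most nuclear members small negative log2 fold changes in monocytes at 3 d. In edgeR's quasi-likelihood test with Benjamini-Hochberg adjustment over all genes, genes counted as called had an adjusted p (q) under 0.05 together with a fold change above 1.5. All 12 mitochondrial members tested had positive values (median 0.61) and 4 were called higher (33.3%), against 36.8% of all 22353 genes, so the count is near the background. Of the 7 genes with high counts 2 were called, with a median of 0.50. Of 88 nuclear members tested, 0 were called higher and 4 lower (4.55%), against 14.4% of all genes, and 72 had negative changes (median -0.18). Among the 4436 genes with mean log2 CPM above 5, where most members lie, 1.15% were called higher and 42% lower, with a median of -0.55. The change over all genes had a median of 0.22.

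Of the 4 mitochondrial calls, mt-Nd6 and mt-Nd5 rested on high counts. mt-Nd6, a complex I subunit and the sole protein-coding gene on the other strand, had scaled CPM (CPM after TMM) of 142.5, 113.6, 120.2 and 151.4 in controls and 225.2, 247.5, 340.4 and 167.7 at 3 d. The groups did not overlap, with the lowest 3 d library, replicate 4, near the highest control. Its log2 fold change was 0.89 (SE 0.20, edgeR q = 0.00317). mt-Nd5, a proton-pumping subunit of complex I, went from 393.4 to 549.9 in controls to 561.2 to 1040 at 3 d, a log2 fold change of 0.75 (SE 0.18, edgeR q = 0.00354), with no overlap. Without strand information, reads of mt-Nd6 cannot be told apart from RNA copied from the opposite strand of the same stretch. mt-Co2 (0.74) and mt-Atp6 (1.03), subunits of complexes IV and V, were also called, on the low counts described above. mt-Co1, with the most counts, ran from 2727 to 3593 in controls and from 2989 to 4713 at 3 d. These ranges overlapped, and its log2 fold change of 0.17 (SE 0.15, edgeR q = 0.352) did not pass the test.

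Among nuclear members at 3 d in monocytes, Sdha had the lowest q. Sdha is the flavoprotein of complex II, which oxidises succinate, and its scaled CPM was 433.1, 328.7, 284.8 and 297.0 in controls, 188.1, 162.7, 155.4 and 213.2 at 3 d, and 299.8, 253.1, 287.5 and 294.0 at 14 d. Every 3 d library was below every control and every 14 d library. The log2 fold change at 3 d was -0.90 (SE 0.15, edgeR q = 0.000855), and it remained called with each replicate left out. The other complex II subunits had smaller values, -0.39 for Sdhd and -0.34 for Sdhc, which anchor the complex in the membrane, and -0.22 for the iron-sulfur subunit Sdhb, and none of these was called. Cox7a2l, counted here with complex IV, had 133.5, 148.7, 139.7 and 115.6 in controls and 75.49, 86.17, 85.30 and 77.83 at 3 d. The groups were well apart, with a log2 fold change of -0.73 (SE 0.14, edgeR q = 0.00133). Ndufa6, an accessory subunit of complex I, was called at -0.59 (q = 0.00677) and Atp5s, a coupling factor of ATP synthase, at -0.90 (q = 0.0204) from means of 3.82 and 2.05 scaled CPM. Atp5s had the highest q of the called nuclear members. Atp5f1, with q = 0.00622 and a log2 fold change of -0.42 under the fold threshold, had the lowest q of those not called. Members said below to lie just inside or just outside a call were picked by q in the same way, whatever their distance from the fold threshold.

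The direction of the nuclear members in monocytes at 3 d depended on the scaling. Over 5 ways to scale the libraries (TMM, library totals, DESeq2 size factors, TMM over abundant genes, and TMM without mitochondrial genes) the nuclear median ran from -0.18 to 0.34 and the mitochondrial median from 0.61 to 1.14. A scaling shifts all genes of a library alike, so the gap between the 2 medians (0.795, or 0.686 over the 7 genes with high counts) is fixed by construction under these alternatives and their range is no sign of stability. With 1 library left out the gap ran from 0.617 to 0.859. Under the 4 alternatives the 4 mitochondrial calls all held and 0 of the 4 nuclear calls held under all of them. With libraries scaled to the summed nuclear members, so that each mitochondrial gene is set against the nuclear members of its own library, 9 of 12 mitochondrial members were called higher, against 39.1% of all genes and 1.58% of genes with mean log2 CPM above 5. mt-Nd6 (1.05), mt-Nd5 (0.91), mt-Nd1 (0.71), mt-Nd2 (0.66) and mt-Cytb (0.60) were among them, and mt-Co1 (0.34, edgeR q = 0.12), mt-Nd4 (0.57) and mt-Atp8 were not.

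**Figure D3:**
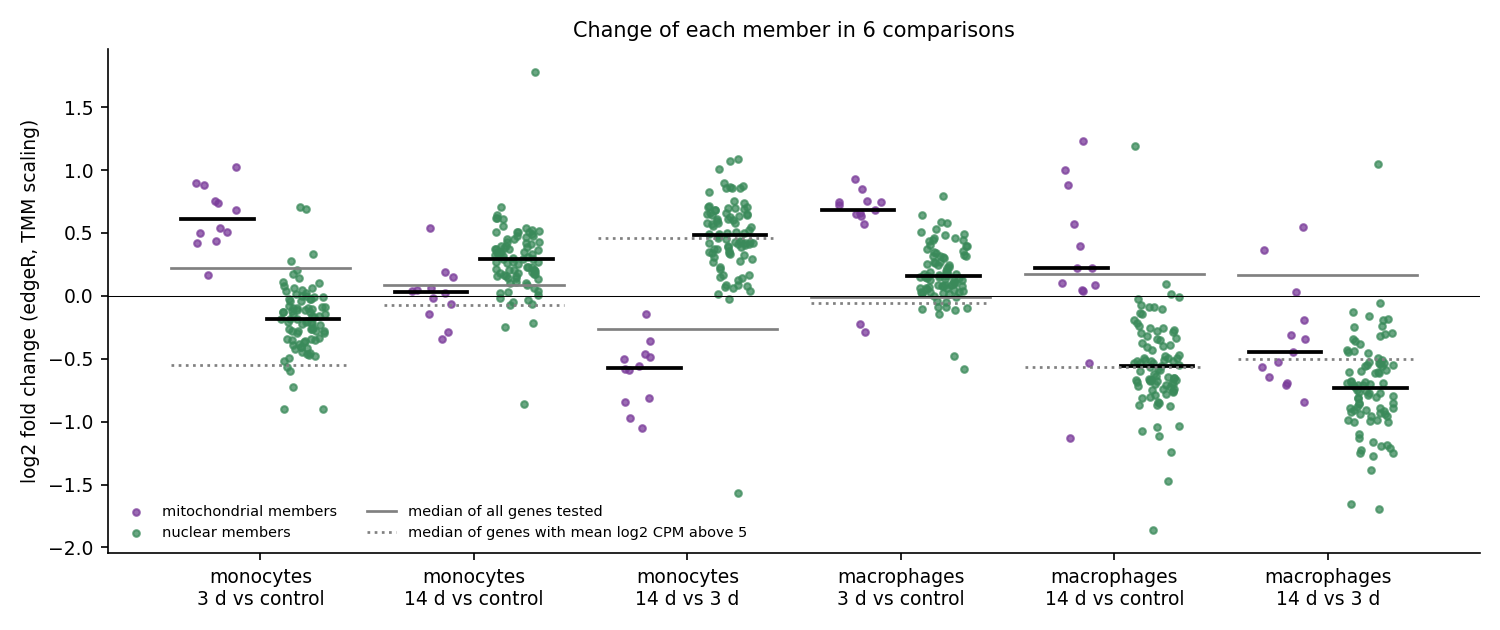
The log2 fold change (edgeR, TMM scaling) of each mitochondrial (purple) and nuclear (green) member in 6 comparisons, with a black bar at each median, a grey line at the median of all genes tested and a dotted line at the median of genes with mean log2 CPM above 5. The mitochondrial median exceeds the nuclear one in 4 of the 6 comparisons, by 0.795 in monocytes at 3 d and 0.779 in macrophages at 14 d, and lies below it in monocytes at 14 d against control and against 3 d.

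At 14 d in monocytes the median change of nuclear members was above that of mitochondrial members. Mitochondrial members had a median log2 fold change of 0.03 relative to control (0.02 over the 7 genes with high counts), with 0 of 12 called by edgeR or DESeq2 in either direction and 1 at an unadjusted p under 0.05. The nuclear median was 0.29, with 80 of 88 above 0, 5 called higher (5.68%) against 3.22% of all genes, and 0 lower against 5.34%. The called members were Atp5g3 and Atp5g1, which encode the ring subunit c of ATP synthase, Ndufa5 and Ndufa12, accessory subunits of complex I, and Cox7a1, the heart and muscle form of a complex IV subunit. Atp5g3 had 269.5, 282.9, 327.8 and 308.8 scaled CPM in controls and 418.1, 510.8, 499.6 and 398.1 at 14 d. The groups did not overlap, and the log2 fold change was 0.62 (SE 0.13, edgeR q = 0.00879). Cox7a1 was a rare transcript, at 0.663, 0.645, 1.17 and 0.936 in controls and 2.64, 3.85, 3.30 and 2.02 at 14 d, with a log2 fold change of 1.78 (SE 0.40, edgeR q = 0.0106) and no overlap. Ndufa5 (0.71, q = 0.0171), Ndufa12 (0.62, q = 0.0330) and Atp5g1 (0.61, q = 0.0362) completed the calls, with Atp5g1 just inside the threshold and Cox5b (0.52, q = 0.0448) just outside. All 5 were called under each of the 4 other scalings.

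The number of these 14 d calls in monocytes depended on which libraries were kept. Control replicate 1, 3 d replicate 4 and 14 d replicate 1 were low in Cox5a, a core subunit of complex IV. Cox5a was at 46.4 scaled CPM in that control against 108.5 to 172.7 in the other controls, and at 36.1 at 3 d against 103.5 to 114.1. Uqcrfs1, the iron-sulfur subunit of complex III, was low in the same libraries. Over all genes with a mean of at least 10 CPM, 462 of 7698 (6.00%) were lower than their group's median by more than 0.6 log2 units in all 3 libraries, against 2 of 82 nuclear members (2.44%). Without these 3 libraries 0 members were called at 14 d, in a test with fewer libraries per group. With any 1 replicate left out the count ran from 1 to 8, with Cox7a1 called each time. Scaled to nuclear members, 0 mitochondrial members were called lower at 14 d, against 7.1% of all genes, and the gap between genomes was -0.262 (-0.369 to -0.189 with 1 library left out). Summed marker levels of other cells also differed between these groups. The summed alveolar macrophage list was at 7800 to 13340 CPM in control monocytes and 15710 to 19050 at 14 d, with 1 of 9 called higher and 7 of 9 below 0 (median log2 fold change -0.65), so the sum and the median differ in sign. The monocyte list was at 10460 to 15800 and 7848 to 11690, with 1 of 8 called higher and 3 lower. Summed T and NK cell markers were at 147 to 634 CPM in controls and 13.7 to 23.1 at 14 d, with 5 of 8 called lower, against 5.34% of all genes. Their part in the 14 d values was not tested.

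From 3 d to 14 d the medians of the 2 genomes had opposite signs in monocytes. All 12 mitochondrial members had negative changes (median -0.57), and 3 were called lower (25%), against 34.5% of all genes: mt-Nd2, mt-Atp6 and mt-Cytb. The median of the 7 genes with high counts was -0.50. Of nuclear members 86 of 88 had positive changes (median 0.48) and 31 were called higher (35.2%), against 12% of all genes and 29.9% of those with mean log2 CPM above 5. Complex II contributed 3 of its 4 subunits, Sdhd (0.74), Sdha (0.66) and Sdhc (0.60). The nuclear median ran from 0.02 to 0.48 over the 5 scalings, and none of the 31 was called under all other scalings, while the 3 mitochondrial calls were. Scaled to nuclear members, 11 of 12 mitochondrial members were called lower, against 42.8% of all genes and 6.45% of genes with mean log2 CPM above 5, and the gap was -1.05 (-1.12 to -0.96 with 1 library left out). Uqcrfs1 (1.07, q = 0.0415) lay just inside the call. The 3 d group enters both this comparison and the one against control.

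In macrophages at 3 d, the calls among members were all mitochondrial. Of 13 mitochondrial members 11 had positive log2 fold changes (median 0.68) and 5 were called higher (38.5%), against 1.05% of all 20944 genes. Of the 7 genes with high counts 4 were called, with a median of 0.72. Of 88 nuclear members 77 had positive changes (median 0.15), and edgeR called 0 in either direction, against 0.224% of all genes lower, with 14 positive and 1 negative at an unadjusted p under 0.05. DESeq2 called 9 mitochondrial members and 1 nuclear member higher. mt-Nd1, a core subunit of complex I, had 2724, 3039, 2650 and 2903 scaled CPM in controls and 5371, 3702 and 5126 at 3 d. Every 3 d library was above every control, with replicate 2 the lowest, and the log2 fold change was 0.74 (SE 0.15, edgeR q = 0.0291). mt-Nd6 went from 568.7 to 636.3 to values of 1076, 851.9 and 1097, a log2 fold change of 0.76 (SE 0.15, edgeR q = 0.0175). mt-Cytb (0.75, q = 0.0292), mt-Nd5 (0.66, q = 0.0378) and mt-Co2 (0.85, q = 0.0384) were called, while mt-Co1 (0.57, q = 0.107), mt-Nd2 (0.72, q = 0.0548) and mt-Nd4 (0.65, q = 0.0716) were not.

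These calls were close to the threshold. With 1 library left out the number of members called ran from 0 to 25, it was 0 with replicate number as a block, and scaled to nuclear members 0 of 13 were called higher, against 0.664% of all genes, with values for the 11 positive genes from 0.45 (mt-Co1) to 0.80 (mt-Nd4l). The gap between genomes was 0.529, or 0.569 over the 7 genes with high counts, and ran from 0.484 to 0.619 with 1 library left out. mt-Atp6 (-0.22) and mt-Atp8 (-0.29) had negative values, and in both control replicate 3 stood far above the other controls, with mt-Atp6 at 51.5 scaled CPM against 7.07 to 10.8. All 5 calls held under the 4 other scalings. The nuclear member nearest to a call was Ndufa5 (0.65, q = 0.126). Summed marker levels of other cells also differed between these groups. The summed epithelial list was at 226 to 311 CPM in control macrophages and 613 to 876 at 3 d, the B cell list at 48.5 to 133 and 158 to 474, and the endothelial list at 7.34 to 15.3 and 18.8 to 36.2, with no overlap in any of these. By edgeR 1 of 7 epithelial markers was called higher and 1 lower, 1 of 4 endothelial markers was higher, and no B cell marker was called, with log2 fold changes of 1.43 to 1.96. Their part in the mitochondrial values was not tested.

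**Figure D4:**
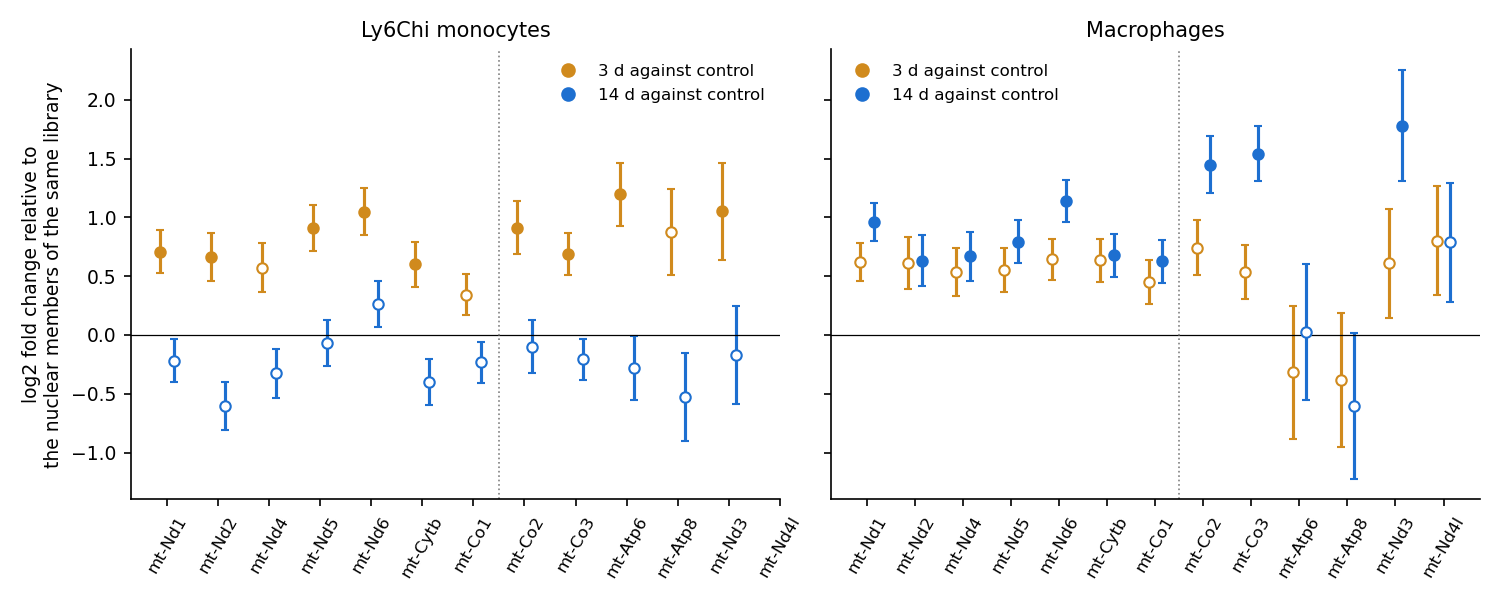
The log2 fold change of each mitochondrial member against control relative to the summed nuclear members of the same library (edgeR; bars are SE; filled points were called), at 3 d (orange) and 14 d (blue), with the 6 low-count genes right of the dotted line; mt-Nd4l was not tested in monocytes. In monocytes 9 of 12 points at 3 d and 0 at 14 d are filled, and in macrophages 0 of 13 at 3 d and 10 at 14 d.

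At 14 d, with TMM scaling, nuclear members of all 5 complexes were called lower in macrophages. The median log2 fold change of nuclear members against control was -0.56, with 85 of 88 below 0, 42 called lower (47.7%), against 22.9% of all genes, and 0 called higher by edgeR, against 39.4%, and 1 by DESeq2. Genes with mean log2 CPM above 5 had the same median, -0.56, with 47.8% called lower, so the nuclear count is near that of abundant genes. Complex III had 6 of its 8 members called lower, complex IV 9 of 15, complex I 18 of 36, complex V 5 of 17, complex II 1 of 4 (Sdhc, -0.67) and the complex I assembly factors 3 of 8. Of the 13 mitochondrial members 11 had positive changes (median 0.22), and 3 were called higher: mt-Co2 (0.88), mt-Co3 (1.00) and mt-Nd3 (1.23), all from the set of low counts. The 7 genes with high counts had a median of 0.10 and 0 calls by edgeR, with 2 at q under 0.05, and mt-Nd6 had the largest value (0.57, q = 0.00291), under the fold threshold.

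Complex IV held the 3 nuclear members with the largest decreases. Cox7a2l had 252.8, 180.0, 252.4 and 240.7 scaled CPM in controls, 124.1, 209.2 and 131.6 at 3 d, and 95.79, 90.74 and 64.24 at 14 d. All 14 d libraries were below all others, and the 3 d libraries overlapped with the controls. Its log2 fold change at 14 d was -1.47 (SE 0.21, edgeR q = 3.04e-05). Cox6b2, the testis form of the subunit whose common form is Cox6b1, had 37.04, 27.07, 39.98 and 42.95 in controls, 25.01, 35.77 and 18.35 at 3 d, and 10.08, 13.48 and 6.42 at 14 d. The 14 d libraries were again the lowest, with a log2 fold change of -1.86 (SE 0.27, edgeR q = 4.17e-05). Its share of Cox6b1 and Cox6b2 counts was 14.8% ± 2.83 in controls, 10% ± 5.18 at 3 d and 6.88% ± 1.12 at 14 d, a value within libraries that needs no scaling, while in monocytes it was 2.48% ± 0.539, 2.19% ± 0.282 and 2.53% ± 0.0591. Ndufa4, a complex IV subunit first assigned to complex I, had 157.4, 145.3, 133.8 and 151.7 in controls and 70.29, 71.96 and 43.62 at 14 d, with 198.4, 133.9 and 269.1 at 3 d. Its 14 d libraries were below all others. It fell by 1.24 log2 units at 14 d (SE 0.22, edgeR q = 0.000187). Cox4i1 was called at -0.67, from a mean of 749.8 to 471.1.

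Among the other complexes the lowest q values went to Uqcrc2 and Uqcrh of complex III and Ndufs7 of complex I. Uqcrc2, a core subunit, had 148.9, 141.6, 152.2 and 147.5 scaled CPM in controls, 159.4, 148.5 and 176.1 at 3 d, and 83.26, 93.26 and 64.75 at 14 d. The 14 d libraries stood clear of both other groups, with a log2 fold change of -0.87 (SE 0.14, edgeR q = 9.55e-05). Its exons overlap those of Pdzd9 on the other strand over 19.7% of their length, and reads there cannot be told apart without strand. Uqcrh, the hinge protein that docks cytochrome c, was at -0.85 (q = 0.000151) and Ndufs7, an iron-sulfur subunit, at -1.03 (q = 0.000143). In complex V the catalytic subunit Atp5b (-0.52, q = 0.0027) lay just outside the call, and Ndufb6 (-0.70, q = 0.0159) just inside. Of the 11 members with the NRF1 core, Ndufaf4 (-1.08), Atp5g2 (-0.84) and Uqcr11 (-0.67) were called lower, and the other values ran from -0.55 (Atp5j) to -0.15 (Ndufaf5). Beside them, 47.7% of nuclear members and 22.9% of all genes were called lower. In monocytes none of the 11 was called by edgeR at either time, while 4.55% of nuclear members were called lower at 3 d and 5.68% higher at 14 d. Of the X-linked members Ndufb11 (-0.87) and Cox7b (-0.65) were called and Ndufa1 (-0.38, q = 0.071) was not.

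**Figure D5:**
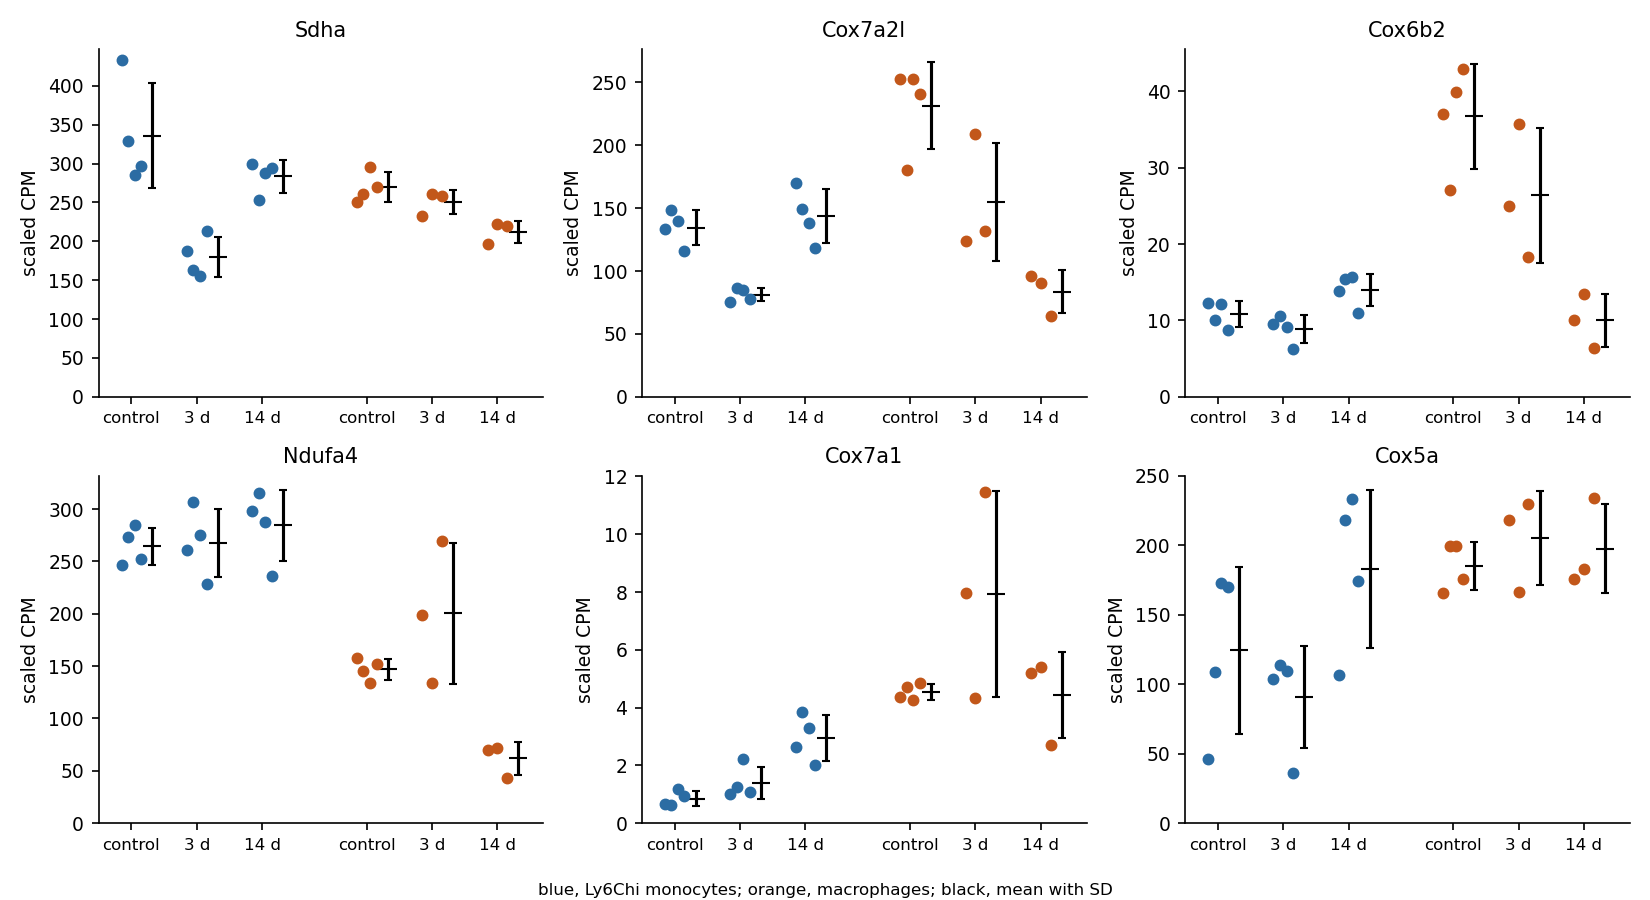
Scaled CPM (CPM after TMM scaling) in every library for Sdha, Cox7a2l, Cox6b2, Ndufa4, Cox7a1 and Cox5a, blue for monocytes and orange for macrophages, with black marks for the mean and SD. Among monocytes Sdha is lowest in the 4 libraries at 3 d, and among macrophages Cox7a2l, Cox6b2 and Ndufa4 are lowest at 14 d. Cox5a is far below its group in monocyte control replicate 1 and 3 d replicate 4.

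Whether the nuclear members as a set decreased in macrophages at 14 d depended on the scaling. The nuclear median at 14 d ran from -0.63 to 0.00 over the 5 scalings and the mitochondrial median from 0.16 to 0.80. The gap between them, which these scalings do not test, was 0.779, or 0.663 over the 7 genes with high counts. It rested in part on single libraries, at 0.435 without 14 d replicate 3 and 1.042 without 14 d replicate 2, and was 0.689 with a filter at mean log2 CPM above 1. Of the 42 nuclear calls, 3 held under all 4 other scalings: Cox7a2l, Cox6b2 and Ndufa4. Relative to the nuclear members, 10 of 13 mitochondrial members were called higher at 14 d, against 48.5% of all genes and 16% of genes with mean log2 CPM above 5. mt-Nd6 (1.14), mt-Nd1 (0.96), mt-Nd5 (0.79), mt-Cytb (0.68), mt-Nd4 (0.67), mt-Nd2 (0.63) and mt-Co1 (0.63) were all among them. From 3 d to 14 d 57 nuclear members were called lower (64.8%), against 20% of all genes, with a median of -0.73 against 0.16 for all genes. Most members are abundant, and the share called among abundant genes alone with TMM is not given for this comparison. Scaled to the nuclear members, the median was -0.11 for nuclear members and 0.79 for all genes. Genes with mean log2 CPM above 5 had a median of 0.11 there, nearer to the nuclear members than to all genes. With the filter at mean log2 CPM above 1 the medians were -0.49 for nuclear members and -0.03 for all genes. The mitochondrial members mt-Nd2 (-0.69) and mt-Cytb (-0.65) were called lower, and 0 members of either genome were called higher by edgeR, against 36.3% of all genes. Of these 59 calls 13 held under all other scalings, Ndufaf3 (-0.60, q = 0.0262) lay just inside and Ndufa6 (-0.55, q = 0.0022) just outside. Relative to the nuclear members, mt-Co2 and mt-Co3 were the 2 genes called higher from 3 d to 14 d, against 48.7% of all genes.

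Markers of other cells moved with these groups. Summed markers of cardiac muscle, a tissue rich in oxidative phosphorylation, were at 1.42 to 2.80 CPM in control monocytes, 12.8 to 18.0 at 3 d and 1.04 to 2.65 at 14 d, and at 0.879 to 3.05 in control macrophages, 1.03 to 2.01 at 3 d and 9.08 to 17.7 at 14 d. In monocytes 3 of 4 tested genes of that list were called higher at 3 d, beside 36.8% of all genes, and in macrophages 3 of 3 at 14 d, beside 39.4%. Summed neutrophil markers were at 107 to 210 CPM in control macrophages, 132 to 179 at 3 d and 536 to 1927 at 14 d, and at 504 to 732, 582 to 1939 and 893 to 1656 in monocytes. No marker in either list was at 0 throughout a group. Other lists moved as well: in monocytes at 3 d all 5 red cell markers, all 4 B cell markers, 6 of 8 T and NK cell markers and 5 of 9 alveolar macrophage markers were called lower, beside 14.4% of all genes. In macrophages at 14 d 6 of 9 alveolar macrophage markers were called lower, beside 22.9% of all genes, and 4 of 8 monocyte markers higher, beside 39.4%. Their part in the changes above was not tested. Among the muscle forms of complex IV subunits, Cox6a2 had 0 to 31 counts per control monocyte library, 0 to 2 at 3 d and 7 to 20 at 14 d, and Cox8b had 0 to 1 in controls, 0 to 4 at 3 d and 0 at 14 d. Cox7a1 made up 0.412% ± 0.092 of Cox7a1 and Cox7a2 counts in control monocytes, 0.749% ± 0.225 at 3 d and 1.23% ± 0.175 at 14 d. In macrophages Cox6a2 stayed at or below 18 counts per library in every group.

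The difference between the cell types in their response was tested as an interaction over all 22 libraries. At 3 d, 1 of 90 nuclear members was called lower in monocytes relative to macrophages, against 3.51% of all 26692 genes, and 0 of either genome higher, against 15.2%. It was Sdha, with a difference of changes of -0.61 (SE 0.21, edgeR q = 0.0418), which did not pass under library totals, under TMM over abundant genes or without mitochondrial genes. At 14 d, 79 nuclear members (87.8%) had changes called higher in monocytes than in macrophages, against 19.9% of all genes, 0 were called lower, against 16.9%, and 0 of 13 mitochondrial members were called by edgeR, with 2 called lower by DESeq2. With TMM the median difference was 1.21 for nuclear and 0.08 for mitochondrial members. Over the 5 scalings the nuclear median ran from 0.36 to 1.21 and the mitochondrial median from -0.79 to 0.08. Of genes with mean log2 CPM above 5, 55.5% were called higher with TMM, with a median of 0.85. Cox6b2 (2.60, SE 0.35, edgeR q = 7.87e-06), Cox7a2l (1.92, SE 0.26, q = 7.25e-06) and Ndufa10, a complex I subunit (1.45, SE 0.20, q = 1.3e-05), were among the 13 called under every scaling, and the count fell to 38 under library totals and 21 under TMM over abundant genes.

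Genes that work with the complexes were counted from lists of the pathway, beside 14.4% of all genes called lower and 36.8% higher in monocytes at 3 d, and 42% lower among those with mean log2 CPM above 5. In monocytes at 3 d, of 10 regulators of respiratory genes 4 were called lower, among them Gabpb1 (-0.99), Pprc1 (-0.96) and Nrf1 itself (-0.75), and Ppargc1a, a coactivator of mitochondrial biogenesis, was called higher (3.47, edgeR q = 0.00476) from a mean of 0.389 to 4.36 scaled CPM. Of 14 citrate cycle enzymes 3 were called lower, Ogdh, Dld and Idh2, and of 15 genes for mitochondrial RNA processing 3, Angel2, Mtpap and Fastk. Of 78 mitochondrial ribosomal proteins, which translate the mitochondrial messages, 2 were called lower (median -0.23). Of 13 genes for mitochondrial DNA transcription and upkeep 1 was called lower (Top1mt), and of 29 assembly factors of complexes II to V 3 were lower and Lyrm7 was higher. Coq7 (0.70) and Coq2 (-0.73), both enzymes of ubiquinone synthesis, were called in opposite directions at 3 d and again at 14 d (1.22 and -1.16). At 14 d, where 3.22% of all genes were called higher and 5.34% lower, 4 of 78 ribosomal proteins were called higher, with Mrpl52 at 1.03, while Pnpt1 (-0.72) and Gabpb1 (-0.59) were called lower.

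In macrophages these lists had 0 calls by edgeR at 3 d and many at 14 d. At 14 d 45 of 78 mitochondrial ribosomal proteins were called lower (median -0.67), with Mrps6 at -2.20, and 11 of 15 RNA processing genes, with Lrpprc, which stabilises mitochondrial messages, at -0.95 (SE 0.14, edgeR q = 5.64e-05). Of the 13 genes for mitochondrial DNA, 6 were called lower, among them the RNA polymerase Polrmt (-1.17) and the transcription factor Tfb2m (-1.40), and the DNA polymerase subunit Polg was called higher (0.75). Of 29 assembly factors 16 were lower, with Tmem70, needed for complex V, at -1.12, and 1 was higher. Of the citrate cycle enzymes Idh3b, Cs and Suclg2 were called lower and Idh3a higher (0.96), and of the ubiquinone genes Coq2, Coq5 and Coq8a were among 5 lower and Pdss1 was higher. Gabpb2 (-1.40) and Gabpa (-0.59) were called lower, and Ppargc1a was called higher (4.13) from a mean of 0.162 to 2.93 scaled CPM. The lower calls stand beside the 22.9% of all genes, and 47.8% of those with mean log2 CPM above 5, called lower in the same comparison. The higher calls stand beside 39.4% of all genes called higher.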

How the data were processed

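Sorted Ly6Chi monocytes and SigF+CD11b- alveolar macrophages from lung were profiled by RNA sequencing. The deposited values are raw counts of reads per gene, in 1 table per cell type that the authors made separately. The submitters' processing notes name STAR (2.7.2c and 2.7.3a), featureCounts 1.6.3 and build GRCm38, and the study's methods describe poly(A) selection, a kit that does not mark strand, and paired reads. The treatment of reads matching several places is not given in the sources used here.

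From these counts edgeR 4.0.16 (R 4.3.3) was run per cell type over its 3 groups, with filterByExpr, TMM scaling and robust quasi-likelihood tests. The interaction between cell types used all 22 libraries and the genes found in both tables. Calls needed q under 0.05 and a fold above 1.5, after the study's thresholds, and p-values were adjusted over all genes tested. Scaled CPM are CPM after TMM. Alternatives were DESeq2 1.42.0, library totals, TMM over genes with mean log2 CPM above 5, TMM without the mitochondrial genome, other filters, a replicate block and each library left out. Scaling to the nuclear members and leaving out 3 libraries low in Cox5a were added after seeing the data. The fit was tested on simulated data. No libraries held identical values. Intervals were not computed for single libraries, and total counts limit the precision of genes with few counts.

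The members and gene lists were chosen with earlier results of these data known. Named genes were all mitochondrial members, up to 5 called nuclear members per direction with the lowest q in each comparison with control, complex II, tissue isoform pairs, the 3 nuclear members highest per kilobase in control cells, the members at the threshold, and up to 3 called genes per pathway list and direction. Cox5a, Uqcrfs1, Ndufa10, the X-linked members, Cox4i1, and members with the NRF1 core were named after their values were seen, as were the 6 low-count mitochondrial genes as a set. The NRF1 motif was first searched in a longer form, with fewer matches, and the core was chosen after that. A member just outside the threshold in 1 comparison is not reported here.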

Additional observations from a re-analysis of the deposited data

Results flagged for a closer look

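Among 144 sets of 4 libraries checked for a library far from the others of its group, 8 were marked, and chance alone marks about 1 in 20 such sets. In monocytes at 3 d, replicate 3 was high in mt-Atp6 (26.66 scaled CPM against 11.36 to 13.65) and in Ndufb6, a complex I subunit (112.0 against 78.37 to 83.43), and replicate 4 was low in Uqcrfs1 of complex III (45.17 against 117.6 to 131.4). At 14 d replicate 2 was high in mt-Nd5 (606.1 against 514.3 to 527.0). In control macrophages, replicate 3 was high in mt-Atp6 (51.52 against 7.07 to 10.76) and in mt-Atp8 (13.17 against 1.444 to 2.533), neighbours whose exons overlap. Replicate 2 was high in Atp5f1, a stalk subunit of ATP synthase (287.5 against 244.7 to 249.1), and low in Cox7a2l (180.0 against 240.7 to 252.8). What sets these libraries apart was not tested.

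The response differed between the cell types by the interaction test for 1 member at 3 d, Sdha, with a difference of -0.61 on the log2 scale. Beside it, 3.51% of all genes were called lower and 15.2% higher. At 14 d it differed for 79 members, led by Cox7a2l (1.92), Cox6b2 (2.60) and Ndufa10 (1.45), beside 19.9% of all genes called higher and 16.9% lower. Both cell types' 14 d libraries also differ from their controls in sex, and the macrophage 14 d libraries have the fewest counts.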

How the results depend on the processing

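Counts of calls in this section are given without the share of all genes called under the same setting. The number of members called against control in monocytes at 3 d (8 in the main analysis) was 20 with library totals, 22 with TMM over abundant genes, 28 without a filter and 26 by q alone. At 14 d (5) it was 10 with library totals, 1 without a filter, 1 scaled to nuclear members and 0 without the 3 libraries low in Cox5a. From 3 d to 14 d (34) it was 22 with DESeq2, 12 with library totals, 13 with TMM over abundant genes, 56 without a filter, 9 with the filter at log2 CPM above 1, 12 scaled to nuclear members and 63 by q alone. In macrophages at 3 d (5) it was 10 with DESeq2, 0 with the replicate block and 0 scaled to nuclear members. At 14 d (45) it was 24 with DESeq2, 14 with library totals, 15 with TMM over abundant genes, 11 with the stricter filter and 16 scaled to nuclear members. From 3 d to 14 d (59) it was 14, 14, 34 and 10 with library totals, TMM over abundant genes, the stricter filter and nuclear scaling. The interaction at 3 d (1) fell to 0 with library totals, TMM over abundant genes or no mitochondrial genes, and that at 14 d (79) to 38 with library totals and 21 with TMM over abundant genes. Leaving out 1 library gave 8 to 13, 1 to 8 and 23 to 41 calls in monocytes and 0 to 25, 33 to 64 and 56 to 87 in macrophages, in the order above. Scaled to nuclear members, the change from 3 d to 14 d in macrophages turned positive for Atp5d (0.0376), Ndufb7 (0.0316), Cox8a (0.0112), Atp5l (0.0368), mt-Nd2 (0.0174) and mt-Cytb (0.0425). The 14 d interaction turned negative for Ndufs1 with library totals (-0.0597) and, with TMM over abundant genes, for Ndufs1 (-0.262), Ndufv1 (-0.122), Atp5c1 (-0.0644), Ndufaf5 (-0.0323), Atp5j2 (-0.0174), Cox6a1 (-0.0159) and Ndufb8 (-0.00887). The nuclear percent in control macrophages was 1.09 of protein-coding counts. Beyond the scalings themselves, the cause of these shifts was not tested. Same-numbered samples were not taken as pairs, since in no comparison were all correlations over 0.1 (-0.17 to 0.521), though between control and 14 d monocytes 3 of 4 were, and 3 of 4 samples matched best with their own number. The replicate block gave 8, 5 and 34 calls in monocytes and 0, 46 and 59 in macrophages. Depth limits the genes with few counts, above all the 6 low mitochondrial genes.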

Other observations

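Second forms of complex IV subunits known from testis were near absent in control monocytes and had counts in every library at 3 d. Cox7b2 had 7 to 14 counts per library at 3 d (40 in all) against 0 to 3 in control and 14 d libraries, and Cox8c had 7 to 16 (43 in all) against 0 to 1. Ndufa4l2, a relative of Ndufa4 known from hypoxia, had 2 to 26 counts at 3 d against 0 to 5 in controls. In macrophages Cox7b2 had 3 to 9 counts per library at 14 d and 0 to 1 in the other groups. These genes were chosen after their values were seen and did not pass the filter on low counts, so no test is given. The libraries concerned are also those in which the most genes had a count in monocytes and those with the lowest totals in macrophages.

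The mitochondrial ribosomal RNAs, which are not members, had 0.914 ± 0.104 counts per count of the 7 well-counted mitochondrial genes in control monocytes, 1.49 ± 0.11 at 3 d and 1.13 ± 0.18 at 14 d (SD, n = 4 each). In macrophages the ratio was 0.0726 ± 0.00909 in controls (n = 4), 0.0644 ± 0.00527 at 3 d and 0.162 ± 0.0277 at 14 d (n = 3 each). The 3 d and control libraries did not overlap in monocytes and overlapped in macrophages. Every 14 d macrophage library (0.135 to 0.190) lay above every control and 3 d macrophage library (at most 0.0857).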
